A study of Rattus norvegicus with 54 samples.

Results

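Matrix metalloproteinases (MMPs) and their tissue inhibitors (TIMPs) were followed in infarcted rat hearts with and without a cell sheet. The 10 genes were 6 metalloproteinases (Mmp2, Mmp3, Mmp9, Mmp12, Mmp14 and Mmp19) and 4 inhibitors (Timp1, Timp2, Timp3 and Timp4). They were chosen by name and matched to the gene symbol in the count tables of all 54 libraries, where each is 1 of 40319 genes. The hearts came from 18 female athymic rats of the F344/NJcl-rnu/rnu strain, 8 weeks of age, in 3 groups of 6. Sham rats underwent surgery without infarction and received no treatment. Untreated MI rats had a myocardial infarction from permanent ligation of the left anterior descending coronary artery. Cell sheet rats had the same ligation, and a bi-level sheet of human smooth muscle cells and human endothelial progenitor cells was laid on the heart. All rats, shams included, are of a strain that lacks a thymus and is known to make few or no mature T cells, a limit of this host as a model of scar formation. Left ventricular tissue was taken 1 week after surgery as an infarct, a border and a remote zone piece of each heart, so sham hearts have pieces named for zones in which no infarct had been made. Counts were assigned to rat genes, and transcripts of the human cells were not analysed here.

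MMPs are zinc-dependent enzymes that cleave collagens, elastin and other proteins of the extracellular matrix, and most are made as inactive precursors that must be cut to work. TIMPs bind the active enzymes and block them, and TIMP-2 also helps MMP-14 at the cell surface to activate MMP-2. After infarction this system takes part in clearing dead muscle, in the entry of inflammatory cells and in building the scar. RNA levels as measured here report neither enzyme activity nor the balance of enzyme and inhibitor protein.

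Each library held between 12699204 and 23397754 counts on genes, which makes counting error small for all members except Mmp3, Mmp9 and, in sham and remote tissue, Mmp12. Levels are given as CPM, gene counts scaled to a common library size, which are comparable between libraries for 1 gene but not between genes, since they are not corrected for gene length. Sham replicate 5 stood apart in all 3 zones. Its summed macrophage markers (8 genes) were 6461 to 11370 CPM against sham group medians of 288.1 to 496.6, and its summed T cell markers (3 genes, Cd3e, Cd3d and Cd3g) were 168.3 to 262.9 CPM, while no other sham library exceeded 6.87. These T cell levels go against an athymic host in that animal, and their cause was not tested. The same animal had summed cardiomyocyte markers of 18360 to 31290 CPM against sham group medians of 53040 to 59530. The remote piece of cell sheet replicate 1 also stood apart, with summed fibroblast markers (6 genes) of 14690 CPM against a group median of 2528. The border piece of the same heart had the lowest summed cardiomyocyte markers (8 genes) of all libraries, 145.2 CPM against a group median of 18800. The cardiomyocyte genes that define the labelled tissue were detected in every group. Results that change with these animals are also given without them.

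**Figure D1:**
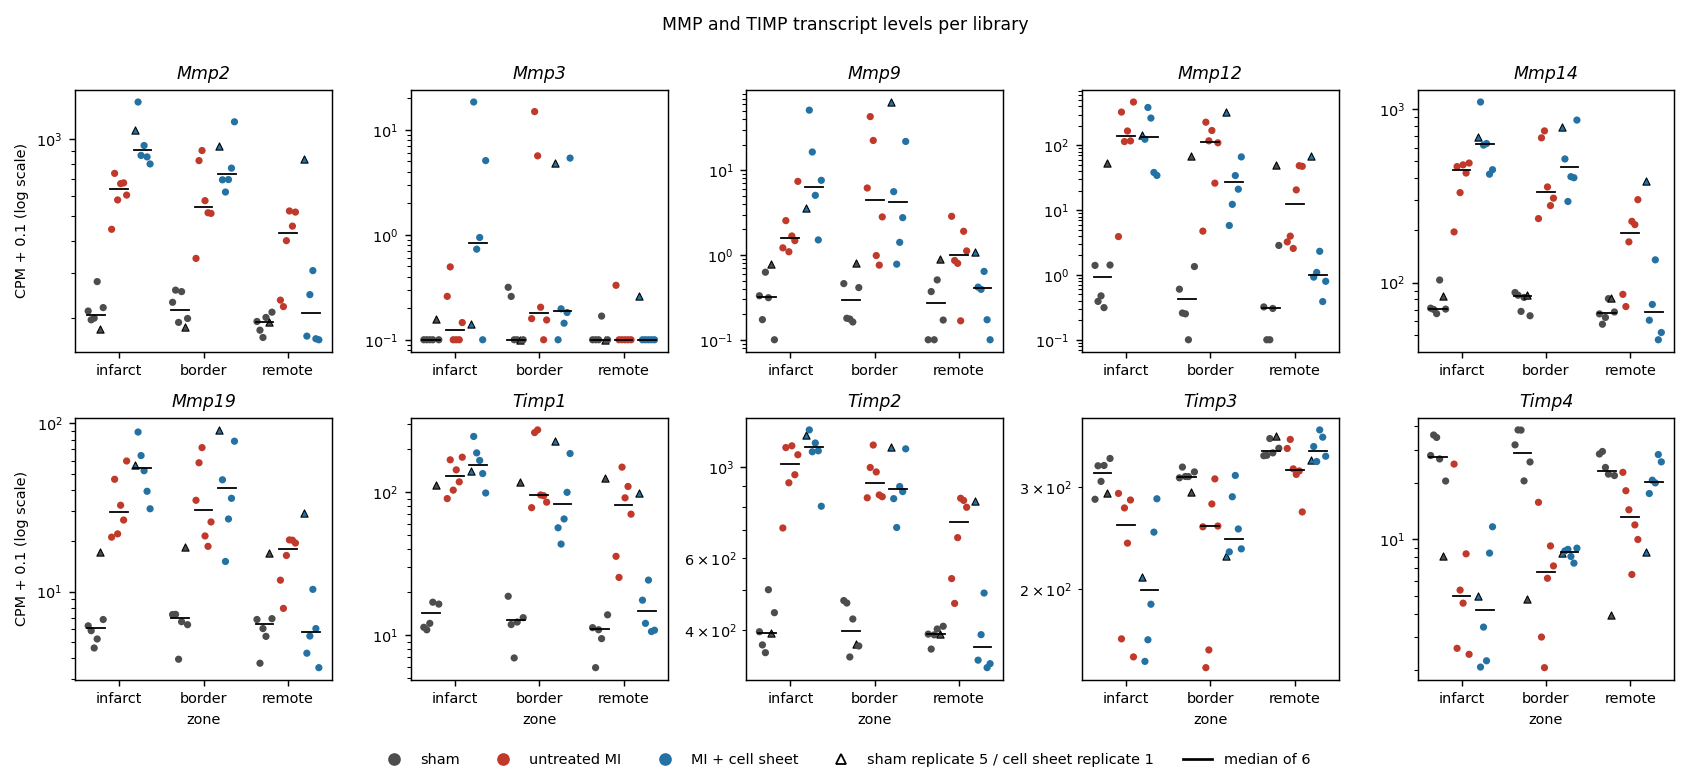
Level of each of the 10 genes in every library (CPM + 0.1, log scale) by treatment and zone, with 6 libraries a group and a bar at the group median; triangles mark sham replicate 5 and cell sheet replicate 1. Mmp2, Mmp14 and Timp2 of the untreated MI infarct zone lie above all sham values, whereas Timp4 lies lower in most infarcted pieces.

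The first question was what infarction alone changed. In the infarct zone 9 of the 10 genes had enough counts to be tested, and 8 passed the threshold of an adjusted p of 0.05 in edgeR's quasi-likelihood test over all genes. Mmp2, Mmp9, Mmp12, Mmp14, Mmp19, Timp1 and Timp2 were higher in untreated MI than in sham, and Timp4 was lower. The background was high, since 49.9% of all genes passed in this comparison (22.7% higher and 27.2% lower). Border zone tissue had 6 members higher and 1 lower (background 41.7%, with 18.4% higher and 23.2% lower), and remote tissue had 4 higher and none lower (background 25.8%, with 11.7% higher and 14.2% lower). Without sham replicate 5 the counts were 8 in each of the 3 zones, with 7 higher and 1 lower, against backgrounds of 64.8%, 60.8% and 46.5%. The median log2 fold change of the 9 tested members was 2.13 for infarct, 2.21 for border and 1.06 for remote pieces, while the medians over all genes were -0.02, -0.02 and -0.04. Scaling by library size alone moved the median over all genes of the infarct zone to 0.24 and that of the border zone to 0.17. It turned the split of calls over all genes from 3580 higher and 4286 lower to 5587 and 2735 in the infarct zone, from 2883 and 3634 to 4203 and 2351 in the border zone, and from 1782 and 2170 to 2597 and 1189 in the remote zone. No member changed its call in these comparisons under that scaling.

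Mmp2 encodes gelatinase A, an enzyme of fibroblasts that cleaves denatured collagen. Its level in the infarct zone ran from 180.5 to 277.5 CPM in sham (median 206.4) and from 444.1 to 734.1 CPM in untreated MI (median 636.6). The groups did not overlap, as was the case for 14.1% of all genes. Mmp2 was 2.88-fold higher (log2 fold change 1.52 ± 0.15 SE, adjusted p = 4.36e-05). The border zone log2 fold change was 1.48 ± 0.22 (adjusted p = 0.000749). The remote zone value was 1.04 ± 0.21 (adjusted p = 0.00395), and the 6 untreated MI libraries, between 221.6 and 523.6 CPM, again all lay above the highest sham library at 210.8 CPM. A background of 8.24% of all genes had no overlap there.

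Mmp14 encodes a membrane-bound enzyme that activates the Mmp2 product. It ran from 66.22 to 103.5 CPM in sham infarct pieces (median 70.76) and from 196 to 489 CPM in untreated MI (median 447.5), again with no overlap. The difference was 5.13-fold (log2 fold change 2.36 ± 0.22, adjusted p = 4.33e-05). It was 2.47 ± 0.30 on the log2 scale in border tissue (adjusted p = 0.000233). In remote tissue it was 1.36 ± 0.30 (adjusted p = 0.00613), where untreated MI replicate 2 at 72.74 CPM lay inside the sham range of 57.53 to 81.05 and replicate 1 at 85.56 CPM lay just above it.

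Mmp9 encodes gelatinase B, which neutrophils and macrophages release. It was nearly silent in sham, with 0 to 0.687 CPM in the infarct zone, which is at most 12 counts. Untreated MI infarct pieces held 0.992 to 7.29 CPM (median 1.48). The log2 fold change was 3.01 ± 0.71 (adjusted p = 0.00528). The highest levels of this gene in untreated hearts were in the border zone, where replicates 2 and 3 reached 42.8 and 22.34 CPM and the other 4 stayed between 0.659 and 6.07. The border zone log2 fold change over sham was 5.45 ± 1.15 (adjusted p = 0.00449). Its remote zone value was 2.10 ± 0.83 and did not pass (adjusted p = 0.0808), but without sham replicate 5 it was 2.89 ± 0.84 (adjusted p = 0.0114), and without untreated MI replicate 4 it was 2.35 (adjusted p = 0.0494).

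Mmp12 encodes macrophage elastase. Untreated MI infarct pieces held a median of 142.3 CPM, with 468.3 the highest and 3.82 the lowest, the latter in replicate 1. That library also had the highest summed cardiomyocyte markers of its group, 32460 CPM. In sham infarct pieces 5 libraries lay between 0.213 and 1.33 CPM, and replicate 5 stood at 53.66 CPM, 142.6 times their median. With all 12 libraries the log2 fold change was 4.34 ± 1.44 (adjusted p = 0.0248). The call was lost without sham replicate 1 (adjusted p = 0.0503) or sham replicate 6 (adjusted p = 0.0501). Without sham replicate 5 the log2 fold change was 8.18 ± 1.13 (adjusted p = 0.000107). The same library decided the call elsewhere. With it, Mmp12 did not pass in the border zone (3.19 ± 1.48, adjusted p = 0.0998) or the remote zone (1.19 ± 1.37, adjusted p = 0.548), and without it the values were 8.09 ± 1.13 (adjusted p = 0.000138) and 5.05 ± 1.09 (adjusted p = 0.00167).

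Mmp19 encodes an enzyme first found in synovium and carried by macrophages and vessel walls. It rose from a sham median of 5.95 CPM (4.52 to 17.16) to 29.49 CPM (20.95 to 59.63) in the infarct zone, 4.53-fold (log2 fold change 2.18 ± 0.38, adjusted p = 0.0012), with no overlap. The border zone value was 2.21 ± 0.43 (adjusted p = 0.00321). The remote zone value, 1.06 ± 0.35 (adjusted p = 0.0419), lay close to the threshold, and leaving out any 1 library other than sham replicate 5 or untreated MI replicates 1 and 2 took it above 0.05 (adjusted p 0.0701 to 0.0912). Without sham replicate 5 it was 1.49 ± 0.25 (adjusted p = 0.000246).

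Mmp3, stromelysin-1, cleaves many matrix proteins and activates other MMPs. Too few libraries held counts for it to pass the filter in any comparison of 2 groups, so it has no fold change here, and its values are a description. No remote or sham library held more than 3 counts. In untreated MI only border pieces 2 and 3 stood out, with 14.78 CPM (335 counts) and 5.54 CPM (121 counts). In cell sheet hearts it was detected at 18.25 CPM in infarct piece 2, at 4.98 CPM in infarct piece 6, and at 4.70 and 5.27 CPM in border pieces 1 and 6. The other 48 libraries were at or below 0.842 CPM. Border pieces 2 and 3 of untreated MI, border pieces 1 and 6 of the cell sheet group and infarct piece 2 also held the 5 highest Mmp9 levels of all libraries, and 4 of those 5 were among the 5 highest in summed neutrophil markers, at 106.1 to 431.6 CPM. Of that 8-gene list Mpo or Elane was at 0 in 5 of the groups, among them all 3 sham groups, and the part of such cells in these levels was not tested.

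Mmp3 and Mmp12 lie in 1 cluster of MMP genes on rat chromosome 8, in the order Mmp13, Mmp12, Mmp1b, Mmp3, Mmp1, Mmp10, Mmp8, Mmp27, Mmp20 and Mmp7 (RefSeq, GRCr8, which is not the assembly of the count tables). Mmp13 (collagenase-3), named here after its values were seen, reached 34.81 CPM at its highest in the untreated MI border zone, 8.14 CPM in the cell sheet border zone and 14.11 CPM in the cell sheet infarct zone, while its median stayed at or below 0.455 CPM in all 9 groups. RefSeq start-site windows (250 bases before to 50 after the start) were matched for 6 of the 10 members, namely Mmp3, Mmp12 and the 4 inhibitors. The motif TGANTCA, bound by AP-1 factors and searched on both strands, was present in 2 of these 6 windows, Mmp3 and Mmp12, and in 7.33% of 33469 windows of the same length. TATAAA, searched on the strand of the gene, was present in the same 2 windows and in 8.8% of all. The ETS-type motif AGGAAG, searched on both strands, was present in 3 of the 6 windows, Mmp3, Timp1 and Timp4, and in 34.5% of all windows. The 110 bases before the start are shown for the 2 enzymes and, as an inhibitor whose window held none of the 3 motifs, Timp3; capitals mark TGANTCA and TATAAA matches. The Mmp3 stretch is chr8:12925171-12925280 (plus strand), the Mmp12 stretch is chr8:12866542-12866651 (plus strand) and the Timp3 stretch is chr7:19459559-19459668 (minus strand).
Mmp3: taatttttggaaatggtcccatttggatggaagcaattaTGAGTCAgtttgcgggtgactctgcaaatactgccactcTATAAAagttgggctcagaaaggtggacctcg
Mmp12: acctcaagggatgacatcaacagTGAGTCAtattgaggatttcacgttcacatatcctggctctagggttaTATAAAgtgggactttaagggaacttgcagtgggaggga
Timp3: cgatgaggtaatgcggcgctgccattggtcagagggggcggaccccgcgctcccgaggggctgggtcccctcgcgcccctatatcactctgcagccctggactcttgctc
The TGAGTCA match began 71 bases before the start in Mmp3 and 87 bases before it in Mmp12. These matches describe the letters of the window and no binding was measured.

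The 4 inhibitors did not move as a group. Timp1, a soluble inhibitor that rises with inflammation and fibrosis in many tissues, ran from 10.77 to 16.86 CPM in 5 sham infarct pieces and stood at 112.3 CPM in sham replicate 5. Untreated MI held 89.96 to 175.3 CPM (median 130.4). The log2 fold change was 2.13 ± 0.60 with all libraries (adjusted p = 0.0119) and 3.31 ± 0.21 without sham replicate 5 (adjusted p = 7.83e-06). The border zone value was 2.29 ± 0.71 (adjusted p = 0.0232), a call lost without untreated MI replicate 3, sham replicate 4 or sham replicate 6 (adjusted p 0.0505 to 0.0528), and without sham replicate 5 it was 3.57 ± 0.44 (adjusted p = 7.13e-05). Remote tissue gave 1.42 ± 0.75 and did not pass (adjusted p = 0.178), and without sham replicate 5 it was 2.98 ± 0.41 (adjusted p = 6.79e-05).

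Timp2, the inhibitor that also assists Mmp2 activation, ran from 352.4 to 501.8 CPM in sham infarct pieces and from 709.4 to 1125 CPM in untreated MI, without overlap. It was 2.40-fold higher (log2 fold change 1.26 ± 0.15, adjusted p = 0.000103). It was also higher in border (1.21 ± 0.13, adjusted p = 0.000152) and remote tissue (0.82 ± 0.14, adjusted p = 0.00226). Sham replicate 5 lay inside the range of the other shams for Timp2 in every zone, in contrast to its Timp1 and Mmp12.

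Timp3, an inhibitor held in the matrix, ran from 286 to 336.7 CPM in sham infarct pieces and from 152.3 to 292.8 CPM in untreated MI. Its log2 fold change did not pass in the infarct zone (-0.41 ± 0.17, adjusted p = 0.0605), the border zone (-0.42 ± 0.18, adjusted p = 0.0725) or the remote zone (-0.12 ± 0.08, adjusted p = 0.308). DESeq2 called it lower in the infarct zone (-0.44, adjusted p = 0.0225) and the border zone (-0.44, adjusted p = 0.0389). Without untreated MI replicate 5 edgeR also called it in both, at -0.48 (adjusted p = 0.0475) and -0.52 (adjusted p = 0.0318), and without replicate 1 in the infarct zone, at -0.47 (adjusted p = 0.036).

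Timp4, the inhibitor best known from heart muscle, was the member that fell. Sham infarct pieces held a median of 27.25 CPM with 35.81 the highest, and the lowest, 8.07 CPM, was replicate 5. In untreated MI 5 pieces lay between 2.34 and 8.26 CPM, while replicate 1, the piece with the highest cardiomyocyte markers, stood at 25.04 CPM. The log2 fold change was -1.68 ± 0.57 (adjusted p = 0.0285) in the infarct zone and -1.90 ± 0.54 (adjusted p = 0.0157) in the border zone. The infarct zone call was lost without any 1 of untreated MI replicates 2 to 6 or sham replicates 2 and 3 (adjusted p 0.0505 to 0.0601), and without sham replicate 5 it was -1.87 ± 0.54 (adjusted p = 0.00933). Timp4 did not pass in remote tissue (-0.64 ± 0.40, adjusted p = 0.258), and without sham replicate 5 it was -0.86 ± 0.24 (adjusted p = 0.00962).

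Cell type markers moved in the same comparisons. In the infarct zone of untreated MI against sham, all 8 cardiomyocyte markers were lower, with summed levels of 2691 to 32460 against 19960 to 64810 CPM. Of the fibroblast markers 4 of 6 were higher (6433 to 15880 against 2548 to 3796 CPM), of the myofibroblast markers 5 of 5 (1063 to 4132 against 78.46 to 426.4 CPM), of the macrophage markers 5 of 8 (2082 to 11050 against 308.1 to 11370 CPM) and of the endothelial markers none (1 lower). Without sham replicate 5 the sham sums were 308.1 to 617.2 CPM for macrophage markers and 51300 to 64810 CPM for cardiomyocyte markers. Neither then overlapped untreated MI. The counts of marker genes are from fits with all libraries. No marker of these lists was at 0 throughout a group. In bulk tissue, fewer cells of a type and less RNA per cell cannot be told apart, and the part of these cell types in the levels of the members was not tested.

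**Figure D2:**
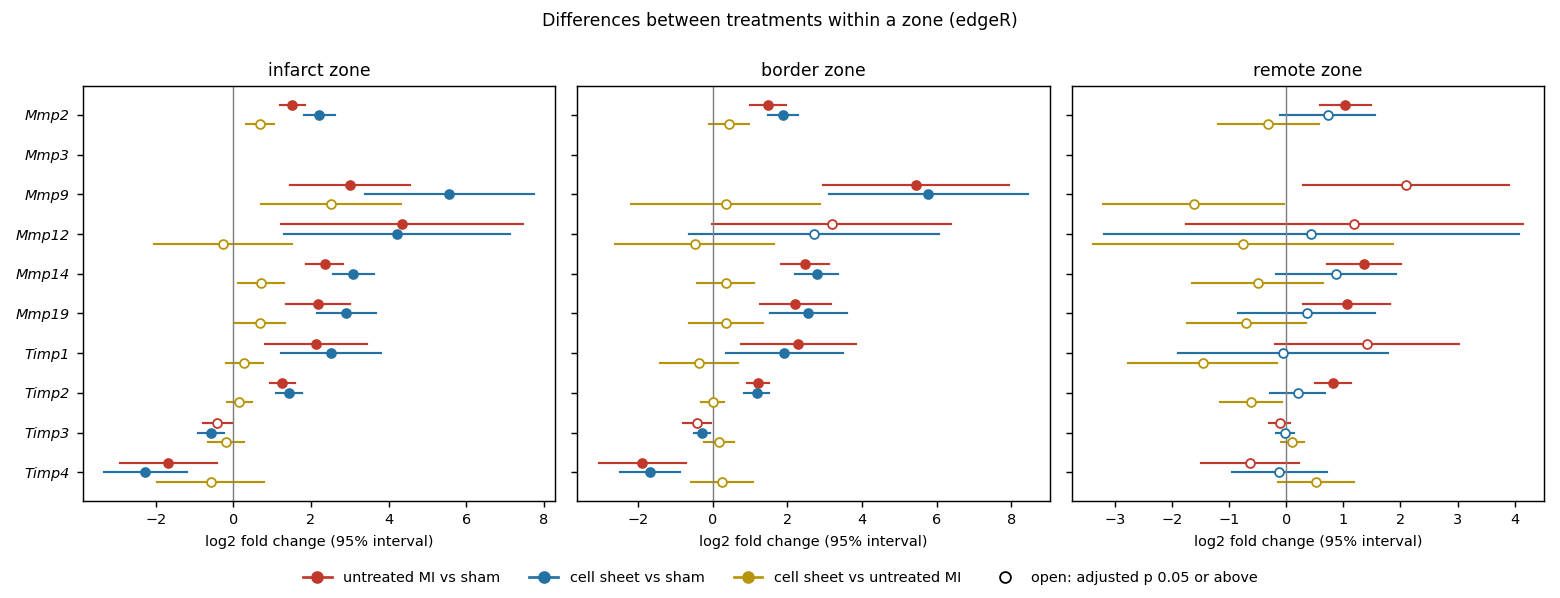
Log2 fold changes with 95% intervals from edgeR for the 10 genes in each zone, comparing untreated MI with sham, cell sheet with sham, and cell sheet with untreated MI; open points did not pass an adjusted p of 0.05, and Mmp3 was not tested. Filled points are found only against sham, among them 8 of 9 for untreated MI in the infarct zone, and none of the cell sheet versus untreated MI points is filled in any zone.

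The second question was whether the cell sheet changed these genes in infarcted hearts. No member passed in any zone when cell sheet and untreated MI hearts were compared with all libraries. In the infarct zone no gene at all passed in edgeR (background 0%, with 1341 of 16196 genes at an unadjusted p under 0.05), and DESeq2 called 85 genes. The background was 18.0% in border tissue (8.47% higher and 9.48% lower) and 17.1% in remote tissue (10.3% higher and 6.79% lower), so other genes did pass there. These backgrounds were split into 1379 higher and 1543 lower genes in the border zone and 1579 and 1044 in the remote zone, and into 1631 and 1216, and 1065 and 1129, when scaled by library size alone.

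Mmp2 was the member whose infarct zone levels were most clearly set apart. Cell sheet pieces held 798.9 to 1394 CPM (median 902.9) and untreated MI pieces 444.1 to 734.1 CPM, with no overlap, against a background of 0.747% of genes without overlap. The log2 fold change was 0.68 (95% interval 0.32 to 1.04, unadjusted p = 0.00145), which did not pass (adjusted p = 0.472), while DESeq2 gave an adjusted p of 0.0214. Mmp9 held 1.41 to 51.03 CPM with the cell sheet against 0.992 to 7.29 without, a log2 fold change of 2.52 (0.70 to 4.33, adjusted p = 0.497). Mmp14 gave 0.71 (0.13 to 1.29, adjusted p = 0.511) and Mmp19 0.68 (0.02 to 1.33, adjusted p = 0.588). These 4 intervals lie above 0 before adjustment and none passed after it. Marker levels stood apart in the same pieces, although no marker gene passed. Summed mural markers (6 genes, of smooth muscle cells and pericytes of vessels) were 777.2 to 1027 CPM with the cell sheet and 581.3 to 755.3 CPM without, with no overlap. Summed fibroblast markers were 12030 to 26490 CPM (median 19390) against 6433 to 15880 (median 13040), summed myofibroblast markers 3472 to 7246 against 1063 to 4132, and summed cardiomyocyte markers 788.4 to 29480 (median 2583) against 2691 to 32460 (median 9966). Macrophage sums were alike in range, 1748 to 11920 against 2082 to 11050 CPM. The part of these cell types in the levels of the members was not tested.

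For the other infarct zone members the intervals included 0. Mmp12 gave a log2 fold change of -0.27 (-2.04 to 1.51), Timp1 0.29 (-0.20 to 0.77), Timp2 0.15 (-0.17 to 0.47), Timp3 -0.18 (-0.64 to 0.28) and Timp4 -0.58 (-1.96 to 0.80). The interval of Timp2 leaves room for a change of at most 0.47 on the log2 scale, whereas that of Mmp12 leaves more than 1.5 in either direction. All 9 border zone intervals included 0. Timp2 was closest to no difference there, with 711.4 to 1116 CPM against 840.4 to 1130 CPM and a log2 fold change of -0.01 (-0.33 to 0.31). Mmp2 was at 0.43 (-0.10 to 0.96), Mmp14 at 0.34 (-0.43 to 1.11) and Timp4 at 0.25 (-0.60 to 1.09). Without cell sheet replicate 1 again no member passed in the border zone (background 18.8%), but Mmp12 then stood at -1.95 ± 0.85 (adjusted p = 0.129) and Mmp9 at -0.97 ± 1.12 (adjusted p = 0.571). Of the markers 4 of 6 mural genes were higher in border pieces with the cell sheet (899.1 to 1136 against 473.6 to 699.8 CPM, with no overlap). Lower were 1 of 8 macrophage genes (1652 to 5059 against 2469 to 8122 CPM) and 2 of 3 T cell genes (1.135 to 4.193 against 2.638 to 17.87 CPM). Without cell sheet replicate 1 the macrophage sums of the cell sheet group were 1652 to 3071 CPM. The part of these cell types in the levels of the members was not tested.

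In the remote zone a single heart decided the outcome. Of the cell sheet hearts, replicates 2 to 6 held 164.5 to 306.3 CPM of Mmp2, 46.79 to 135.3 CPM of Mmp14, 10.47 to 24.12 CPM of Timp1 and 0.289 to 2.22 CPM of Mmp12. Replicate 1 held 836.2, 385.6, 97.73 and 68.14 CPM. Untreated MI hearts held 221.6 to 523.6 CPM of Mmp2, 72.74 to 300.8 CPM of Mmp14, 25.19 to 149.4 CPM of Timp1 and 2.47 to 48.59 CPM of Mmp12. The remote piece of cell sheet replicate 1 thus lay above the highest untreated MI remote piece for Mmp2, Mmp14 and Mmp12, and the other 5 lay below the lowest untreated MI piece for Timp1 and Mmp12. With all libraries kept, 4.89% of all genes had no overlap between these groups. The share without replicate 1 is not reported here, so this separation cannot be set against other genes.

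With all 12 libraries Timp1 was at -1.47 ± 0.61 (adjusted p = 0.104), Timp2 at -0.62 ± 0.25 (adjusted p = 0.0975) and Mmp9 at -1.63 ± 0.74 (adjusted p = 0.136) in cell sheet against untreated MI remote tissue. Without cell sheet replicate 1, 8 of the 9 tested members passed, 7 lower and 1 higher, where 41.6% of all genes passed. The log2 fold changes were then -0.91 ± 0.25 for Mmp2 (adjusted p = 0.0114), -2.20 ± 0.76 for Mmp9 (adjusted p = 0.0319), -4.36 ± 0.90 for Mmp12 (adjusted p = 0.00213) and -1.29 ± 0.37 for Mmp14 (adjusted p = 0.0132). Mmp19 was at -1.46 ± 0.30 (adjusted p = 0.00204), Timp1 at -2.43 ± 0.42 (adjusted p = 0.000749) and Timp2 at -0.89 ± 0.17 (adjusted p = 0.00157). Timp4 was higher by 0.68 ± 0.26 (adjusted p = 0.049), and Timp3 was at 0.11 ± 0.09 (adjusted p = 0.359). Leaving out any other single library gave 0 calls among the members. The share of all genes that passed in those fits is not reported here, so these counts cannot be set against other genes. Markers moved in the same pieces. Without cell sheet replicate 1 the summed macrophage markers of the cell sheet group were 331.9 to 637.5 CPM against 716.2 to 2939 in untreated MI, with no overlap, while replicate 1 itself held 2919 CPM. Its summed myofibroblast markers were 3913 CPM, against 221 to 530.4 in the other 5 cell sheet pieces and 321.3 to 2235 in untreated MI. Fibroblast sums were 14690 CPM in replicate 1, 1974 to 4278 in the other 5 and 3159 to 9558 in untreated MI. Mural sums were higher with the cell sheet, at 917.5 to 1106 CPM with replicate 1 inside that range, against 542.1 to 681.1, with no overlap. With all libraries 3 of 6 mural markers and 1 of 8 cardiomyocyte markers were higher, and 2 of 3 tested neutrophil markers and 1 of 6 fibroblast markers were lower. The part of these cell types in the levels of the members was not tested.

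Against sham, the cell sheet hearts differed in 9 of 9 tested members in the infarct zone (7 higher, 2 lower, background 57.9%, of which 28.6% higher and 29.2% lower), in 8 of 9 in the border zone (6 higher, 2 lower, background 43.6%, of which 20.4% higher and 23.2% lower) and in 0 of 8 in the remote zone. Remote tissue had 1 of 15157 genes past the threshold (0.00660%), 1520 at an unadjusted p under 0.05, and 220 called by DESeq2. These comparisons share their sham libraries with those of untreated MI. In the infarct zone Mmp2 was 4.65-fold above sham (log2 fold change 2.22 ± 0.18, adjusted p = 9.51e-06), Mmp14 8.53-fold (3.09 ± 0.25, adjusted p = 8.62e-06), Mmp19 7.50-fold (2.91 ± 0.35, adjusted p = 8.02e-05) and Mmp9 47.4-fold (5.57 ± 1.00, adjusted p = 0.000835). Mmp12 was at 4.22 ± 1.34 (adjusted p = 0.0181), Timp1 at 2.52 ± 0.59 (adjusted p = 0.0039) and Timp2 at 1.43 ± 0.15 (adjusted p = 3.54e-05). When sham replicate 5 was left out, Mmp12 was at 7.90 ± 0.89 (adjusted p = 3.62e-05) and Timp1 at 3.59 ± 0.25 (adjusted p = 6.77e-06). Timp4 was at -2.27 ± 0.49 (adjusted p = 0.0025) and Timp3, with 149.6 to 286.6 CPM against 286 to 336.7 in sham, at -0.58 ± 0.16 (adjusted p = 0.00807), a call lost when scaled by library size alone (-0.31, adjusted p = 0.0785).

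The border zone calls against sham were less firm for 2 inhibitors. Timp1 was at 1.92 ± 0.72 (adjusted p = 0.0476) and Timp3 at -0.29 ± 0.10 (adjusted p = 0.039). Timp1 passed only narrowly, and leaving out any 1 library except sham replicate 5 or cell sheet replicate 3 took it above the threshold (adjusted p 0.0516 to 0.101). Timp3 lost its call without any 1 of 9 libraries, cell sheet replicates 1, 2, 5 and 6 and every sham but replicate 5 (adjusted p 0.0633 to 0.0916), with library size scaling (-0.01, adjusted p = 0.909), and with all 9 groups in 1 fit (-0.27, adjusted p = 0.119). With sham replicate 5 and cell sheet replicate 1 both left out, 9 of 9 members passed in the border zone (background 60.7%), with Timp1 at 2.83 ± 0.40 (adjusted p = 0.000117), Timp3 at -0.27 ± 0.10 (adjusted p = 0.0319) and Mmp12 at 6.09 ± 0.85 (adjusted p = 0.0001). With both left out 0 of 8 passed in remote tissue (background 0.846%), and the log2 fold changes ran from -0.19 to 0.67.

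**Figure D3:**
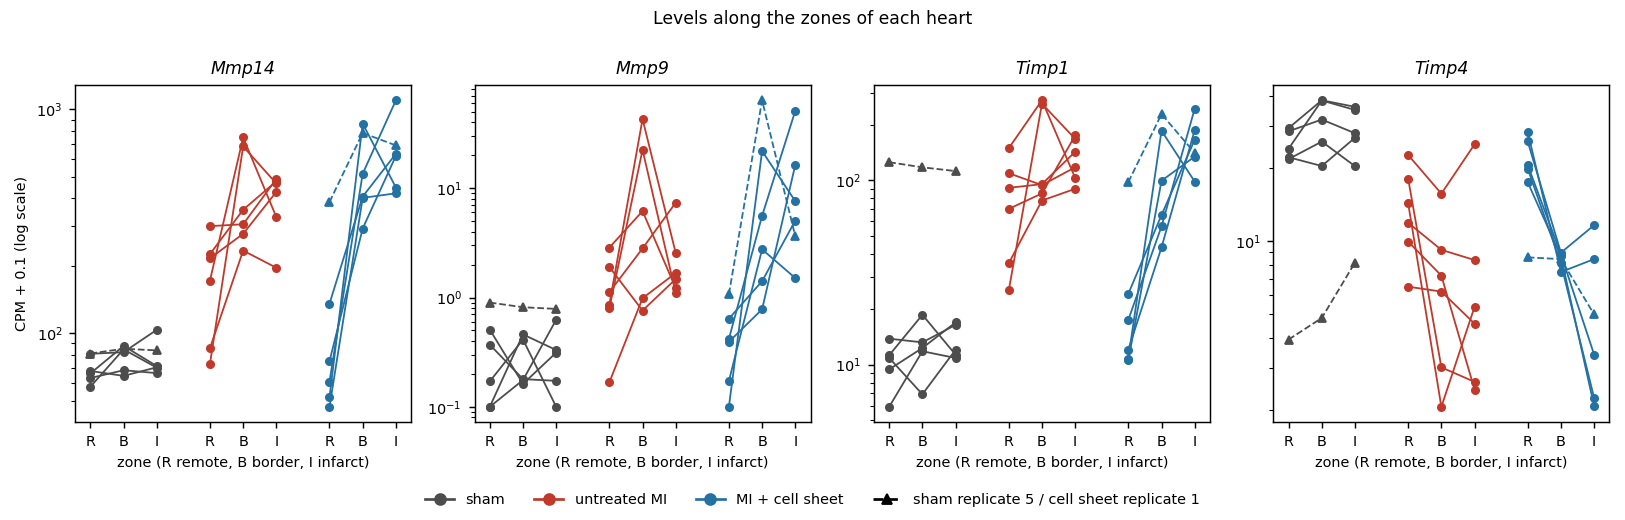
Levels of Mmp14, Mmp9, Timp1 and Timp4 (CPM + 0.1, log scale) in the remote (R), border (B) and infarct (I) piece of each heart, with 1 line a heart and dashed lines with triangles for sham replicate 5 and cell sheet replicate 1. Mmp14 lies higher in the infarct than in the remote piece of all 6 untreated MI and all 6 cell sheet hearts.

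The third comparison was between the pieces of the same hearts, matched by the replicate number in their labels. The main fits, which gave the backgrounds, did not pair the pieces of a heart. Counts from other fits, such as those with the animal as a block, are given without a share over all genes unless it is stated. In sham hearts no member passed for the infarct or border piece against the remote piece (0 of 7 tested each, backgrounds 7.17% and 2.04%, of which 4.44% and 1.51% higher and 2.73% and 0.524% lower). At an unadjusted p under 0.05 the counts over all genes were 3047 and 2309. Timp3 was nonetheless lower in the infarct piece than in the remote piece in 6 of 6 sham hearts, and likewise in the border piece. The infarct pieces held 286 to 336.7 CPM and the border pieces 295 to 325.3 CPM, all below the remote range of 340.4 to 368.7 CPM, as in 5.78% and 3.71% of all genes. The log2 differences were -0.16 ± 0.07 (adjusted p = 0.226) and -0.16 ± 0.07 (adjusted p = 0.245), and DESeq2 gave -0.16 (adjusted p = 0.0441) and -0.17 (adjusted p = 0.00658). With the animal as a block, Timp4 passed in the infarct piece of sham hearts (log2 difference 0.31, adjusted p = 0.0484), the 1 call under this fit. It was higher in 4 of 6 hearts, and replicate 5 held 8.07 CPM in its infarct and 3.82 CPM in its remote piece. Without that animal the edgeR fit without a block gave 0.23 ± 0.14 (adjusted p = 0.273).

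In untreated MI hearts 5 members were higher in the infarct than in the remote piece (background 33.1%, with 18.0% higher and 15.1% lower). They were Mmp12 (log2 difference 3.26 ± 0.97, adjusted p = 0.0249), Mmp14 (1.17 ± 0.34, adjusted p = 0.0219), Mmp19 (1.13 ± 0.29, adjusted p = 0.0157), Mmp2 (0.66 ± 0.23, adjusted p = 0.0404) and Timp2 (0.52 ± 0.18, adjusted p = 0.042). Each of these 5 was higher in 6 of 6 hearts. With the animal as a block 7 members passed, as Timp3 (-0.50, adjusted p = 0.0369, lower in 6 of 6 hearts) and Timp4 (-1.16, adjusted p = 0.042, lower in 5 of 6) were added. Without untreated MI replicate 2 none of the 5 passed, without replicate 4 only 1 did, and without replicate 3, 5 or 6 only 2 did.

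The border piece of untreated MI hearts exceeded the remote piece in 3 members (background 21.7%, with 12.1% higher and 9.58% lower), Mmp9 (3.42 ± 1.00, adjusted p = 0.0337), Mmp14 (1.28 ± 0.39, adjusted p = 0.0368) and Mmp19 (1.27 ± 0.35, adjusted p = 0.0289). None passed with the animal as a block (Mmp9 2.46, adjusted p = 0.114, Mmp14 1.28, adjusted p = 0.0812, and Mmp19 1.14, adjusted p = 0.0962). None passed without replicate 1, 2, 3 or 4, and 5 passed without replicate 5. The spread between hearts was wide here. Replicates 2 and 3 had the highest border levels of Mmp2, Mmp9, Mmp14 and Timp1 in the group, with 683.2 and 749.3 CPM of Mmp14 against 233.9 to 356.1 in the other 4 hearts, and also its lowest Timp4, 2.91 and 1.97 CPM.

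In cell sheet hearts all 9 tested members differed between the infarct and the remote piece (7 higher, 2 lower, background 61.7%, of which 30.7% higher and 31.0% lower). Mmp14 was higher by 2.37 ± 0.54 on the log2 scale (adjusted p = 0.00428), Mmp2 by 1.65 ± 0.42 (adjusted p = 0.00615), Mmp9 by 5.19 ± 0.99 (adjusted p = 0.00286) and Timp1 by 2.49 ± 0.58 (adjusted p = 0.0044), each in 6 of 6 hearts. Timp3 fell by 0.75 ± 0.16 (adjusted p = 0.00335) and Timp4 fell by 1.89 ± 0.45 (adjusted p = 0.0049), both lower in 6 of 6 hearts. Without cell sheet replicate 1 the same 9 members passed (background 64.4%) with larger differences for the MMPs, such as 3.15 ± 0.38 for Mmp14 and 7.39 ± 0.90 for Mmp12. Mmp12 (3.73 ± 1.33, adjusted p = 0.0286) lost its call without replicate 2, 3 or 4 (adjusted p 0.0658 to 0.0935). The border piece differed from the remote piece in 8 members (6 higher, 2 lower, background 47.0%, of which 24.6% higher and 22.3% lower), in 9 with the animal as a block, where Mmp12 was added (3.97, adjusted p = 0.00295), in 4 without replicate 5 and in none without replicate 2 or 6. The smallest of the 8 differences was that of Timp3 (-0.40 ± 0.10, adjusted p = 0.013, and -0.21, adjusted p = 0.104, when scaled by library size alone), with 258.7 ± 35.4 CPM in border pieces against 350.8 ± 18.2 CPM in remote pieces (SD, n = 6).

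An interaction term asked whether a treatment effect differed between zones. Each fit held only the pieces of the zones compared, with the animal as a block. The effect of untreated MI over sham was larger in the infarct than in the remote zone for Mmp14 (difference of log2 fold changes 1.10 ± 0.26, adjusted p = 0.00803) and Mmp19 (1.07 ± 0.34, adjusted p = 0.0289), and more negative for Timp4 (-1.46 ± 0.41, adjusted p = 0.0185), where 28.9% of all genes passed (13.6% more positive and 15.3% more negative). Without the animal term none of the 3 passed (adjusted p 0.0927, 0.173 and 0.366). Without sham replicate 5 Mmp14 (1.08 ± 0.28, adjusted p = 0.0181) and Timp4 (-1.34 ± 0.43, adjusted p = 0.0377) passed and Mmp19 did not (1.07 ± 0.37, adjusted p = 0.0514). The Mmp19 call was also lost without any 1 of sham replicates 1, 3, 4 and 6 or untreated MI replicate 6 (adjusted p 0.0509 to 0.0634). Without untreated MI replicate 5, 5 members passed, with Mmp12 (3.59, adjusted p = 0.0301) and Timp2 (0.54, adjusted p = 0.0431) added. The share of all genes that passed in that fit is not reported here. No member passed for the border zone against the remote zone, where no gene passed and 3995 of 16475 had an unadjusted p under 0.05, while DESeq2 called 1 member and 1483 genes.

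The effect of the cell sheet over untreated MI differed between the infarct and the remote zone for no member with all libraries (no gene passed, 4190 of 16902 had an unadjusted p under 0.05), although the estimates were 1.24 ± 0.41 for Mmp2, 1.57 ± 0.51 for Mmp14 and 2.16 ± 0.65 for Timp1 (adjusted p 0.114 to 0.124). Without cell sheet replicate 1, 7 members passed (background 11.8%), all of them more positive in the infarct than in the remote zone. They were Mmp2 (1.51 ± 0.32, adjusted p = 0.0211), Mmp9 (4.59 ± 1.11, adjusted p = 0.0284), Mmp12 (3.90 ± 1.10, adjusted p = 0.0424), Mmp14 (1.90 ± 0.39, adjusted p = 0.0199), Mmp19 (2.16 ± 0.45, adjusted p = 0.0203), Timp1 (2.57 ± 0.50, adjusted p = 0.0177) and Timp2 (0.99 ± 0.23, adjusted p = 0.025). DESeq2 called the same number of members, 7, with all libraries kept, and its share over all genes is not reported here.

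**Figure D4:**
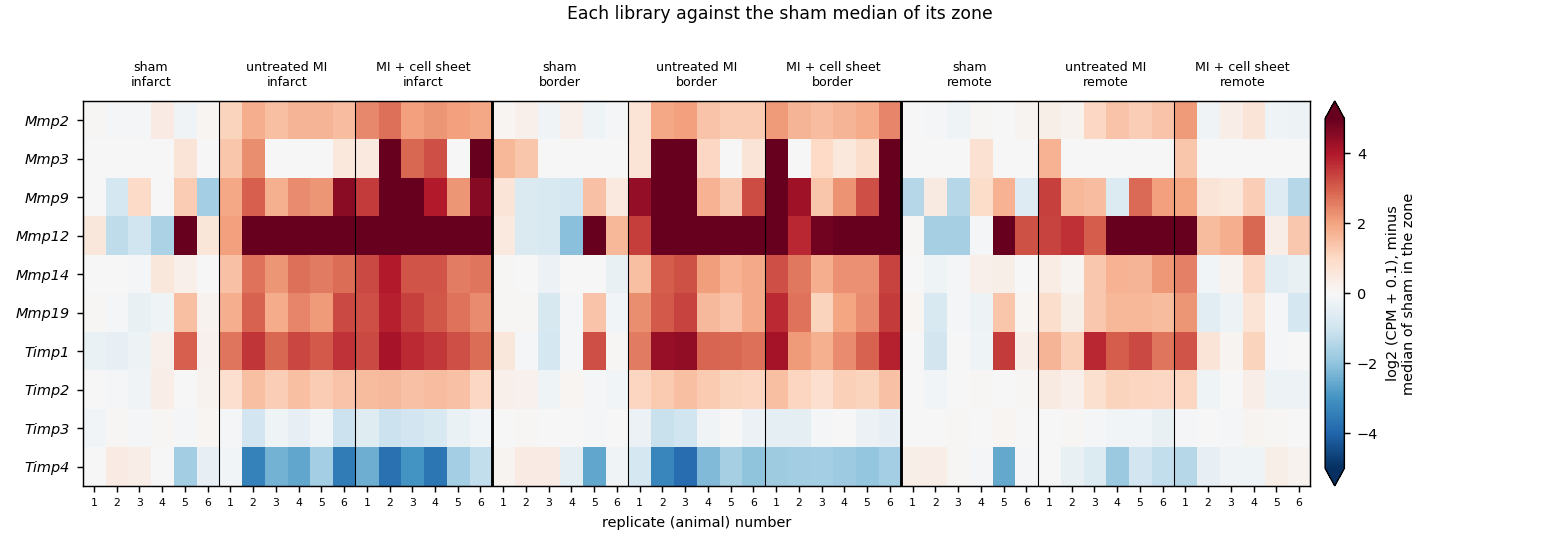
Level of each gene in each of the 54 libraries as log2 (CPM + 0.1) minus the median of the 6 sham libraries of the same zone (colour, with values past the ends of the scale at its end colours), with libraries in columns by zone, treatment and replicate number. Sham replicate 5 is red for Mmp12 and Timp1 and blue for Timp4 in every zone. In the remote zone cell sheet replicate 1 is red for Mmp2, Mmp12, Mmp14, Mmp19 and Timp1. For each of these genes it lies above the other cell sheet hearts, which are a paler red for Mmp12.

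The other genes of the system were read from 2 lists. Of 17 other MMP genes 9 were tested in the infarct zone of untreated MI against sham, of which 5 were higher and 1 was lower, where 49.9% of all genes passed (22.7% higher and 27.2% lower). The largest differences were those of Mmp8, neutrophil collagenase (log2 fold change 4.36 ± 0.55, adjusted p = 0.000165), Mmp16 and Mmp24, which are membrane-type enzymes (2.64 ± 0.31, adjusted p = 0.000105, and 1.44 ± 0.40, adjusted p = 0.011), and Mmp23 (2.63 ± 0.24, adjusted p = 4.13e-05). Border tissue had 4 higher and 1 lower (background 41.7%), and remote tissue 3 and 1 (background 25.8%). When sham replicate 5 was left out, the counts were 6 and 1, 5 and 1, and 5 and 1 of 9 in the infarct, border and remote zone, against backgrounds of 64.8%, 60.8% and 46.5%. Between cell sheet and untreated MI none of them passed in the infarct zone (background 0%) or the border zone (background 18.0%), with or without cell sheet replicate 1. In remote tissue 1 of 9 passed with all libraries (background 17.1%), Mmp24, which was lower (-1.81 ± 0.44, adjusted p = 0.0187), at 0.35 to 1.89 CPM against 1.495 to 6.39 CPM. Without cell sheet replicate 1 Mmp24 was at -2.13 ± 0.43 (adjusted p = 0.00186), and 5 of 9 passed there, 1 higher (Mmp15, a membrane-type enzyme named here after its values were seen) and 4 lower (Mmp8, Mmp16, Mmp23 and Mmp24), where 41.6% of all genes passed.

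Of 19 genes that regulate MMP activity, such as the plasminogen system that activates MMPs and the receptors that clear them, 18 were tested in the infarct zone of untreated MI against sham, of which 10 were higher and 2 lower (background 49.9%). Plau, which encodes urokinase, was at 2.68 ± 0.72 (adjusted p = 0.00952), Plaur, the urokinase receptor, at 2.22 ± 0.39 (adjusted p = 0.00121), and Lcn2, lipocalin-2, a partner of MMP-9 protein, at 2.20 ± 0.24 (adjusted p = 7.58e-05). Plau was at 3.94 ± 0.49 (adjusted p = 6.55e-05) without sham replicate 5. The counts were 11 higher and 2 lower in border tissue (background 41.7%) and 6 and 1 in remote tissue (background 25.8%). They were, without sham replicate 5, 12 and 2 in the infarct, 14 and 2 in the border and 11 and 2 in the remote zone (backgrounds 64.8%, 60.8% and 46.5%). Between cell sheet and untreated MI, 3 of 18 passed in the border zone (2 higher and 1 lower, background 18.0%) and 1 of 17 in the remote zone (background 17.1%), and none of 18 in the infarct zone, so the border zone share was near its background. Of the border zone genes Lrp1, an endocytic receptor that clears MMP and TIMP proteins, was higher (0.89 ± 0.26, adjusted p = 0.0312), as was Furin, a protease that activates membrane-type MMPs (0.35 ± 0.09, adjusted p = 0.0219), and Plgrkt, a plasminogen receptor, was lower (-0.46 ± 0.12, adjusted p = 0.0187). Cell sheet replicate 1 decided several of these calls. Without it 4 of 18 passed in the border zone (1 higher and 3 lower, background 18.8%) and none of 19 in the infarct zone. Lrp1 no longer passed in the border zone (0.77 ± 0.25, adjusted p = 0.0538), while Furin (0.31 ± 0.09, adjusted p = 0.0383) and Plgrkt (-0.48 ± 0.13, adjusted p = 0.025) did, and Lcn2 and Tfpi2, a matrix-bound protease inhibitor, were added as lower (-2.59 ± 0.79, adjusted p = 0.0416, and -0.90 ± 0.29, adjusted p = 0.0476). In the remote zone 13 of 17 passed without it, 1 higher and 12 lower, where 41.6% of all genes passed. Among them Plau was at -1.75 ± 0.41 (adjusted p = 0.00431), Plaur at -1.61 ± 0.32 (adjusted p = 0.00165), Lrp1 at -0.59 ± 0.22 (adjusted p = 0.0476) and Pcsk6, a proprotein convertase and the 1 that was higher, at 0.39 ± 0.14 (adjusted p = 0.0353). Tfpi2 and Pcsk6 were named after their values were seen.

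Lcn2 differed from the members in the remote zone in that it passed with all libraries. It held 14.23 to 36.87 CPM in untreated MI, 3.32 to 5.24 CPM in the cell sheet group and 4.06 to 8.19 CPM in sham, so the cell sheet and untreated MI groups did not overlap, cell sheet replicate 1 included. The log2 fold change of cell sheet against untreated MI was -2.62 ± 0.27 (adjusted p = 0.000991), and without that animal it was -2.71 ± 0.28 (adjusted p = 0.000112).

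Timp1, Timp3 and Timp4 each lie within the span of a synapsin gene, Syn1, Syn3 and Syn2 in turn (RefSeq, GRCr8). The strand setting of the counting was not given in the sources used here, so reads of the inhibitors and of these host genes may not be told apart. Syn2 had few counts (at most 61 in a library) and was lower in untreated MI than in sham infarct pieces (-1.68 ± 0.56, adjusted p = 0.0265, and -1.91 ± 0.47, adjusted p = 0.00395, without sham replicate 5), as its neighbour Timp4 was. Syn3 was higher in the cell sheet than in the untreated MI border zone (0.98 ± 0.21, adjusted p = 0.00847, and 0.99 ± 0.23, adjusted p = 0.0139, without cell sheet replicate 1), where Timp3 did not pass.

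The genes whose level ran most like each member across the 54 libraries were found by Pearson's r of log2 CPM among 13283 candidate genes. The libraries share animals, zones and treatments, so these values describe likeness only. Mmp2 ran closest to Thbs2 (r = 0.98), Col1a2 (0.98) and Col5a2 (0.98), and Mmp14 to Col1a2 (0.99), Aebp1 (0.98) and Col1a1 (0.98), which encode matrix proteins. Timp2 ran closest to Crtapl1 (0.985), Ppic (0.98) and Fkbp10 (0.98). Mmp12 ran closest to Spp1 (0.97), which encodes osteopontin, Gpnmb (0.96) and Plau (0.96), and Mmp19 to Tnfrsf1a (0.98), Igf1 (0.97) and Scpep1 (0.97). Timp1 ran closest to Bcat1 (0.98), Dse (0.98) and Pabpc1 (0.97).

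The likeness of Mmp9 was lower, with Nxn (0.90), Hif1a (0.90) and Adamts14 (0.89), and that of Mmp3 was lowest, with Tgfbi (0.76), Rasl12 (0.74) and Fbxl5 (0.74). Timp3 ran closest to Clic5 (0.93), Pdzd2 (0.93) and Tppp (0.92), and Timp4 to Adgrf5 (0.95), Mapk12 (0.95), a kinase of muscle, and Vtn (0.95). After each level was centred on its group mean, the r of these pairs was 0.66 to 0.96, with Mmp3 and Tgfbi the lowest and Timp1 and Bcat1 the highest.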

How the data were processed

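Poly(A) RNA of 54 left ventricular pieces from 18 rats was sequenced by the authors, who aligned paired reads with STAR (v2.5.4 in the submitters' processing notes) to mRatBN7.2 with Annotation Release 108. The deposited values are raw gene counts per library, not normalized, and the counting tool and its strand setting are not given in the sources used here. Libraries held 12699204 to 23397754 gene counts, after 5 summary lines that name no gene (17.0% to 42.8% of each file) were set aside. Intervals and floors cover counting error only where they are made from counts.

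Groups came from the labels, which call the 6 samples of a group technical replicates while the study's methods describe separate hearts. If they were not separate animals, p-values measure technical spread only. No pair of libraries in a group agreed within counting noise (chi-square per degree of freedom 7.97 to 539).

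Groups were compared with edgeR 4.0.16 (R 4.3.3, limma 3.58.1): TMM factors, filterByExpr, glmQLFit and glmQLFTest on the libraries of the 2 groups, Benjamini-Hochberg adjustment over all genes tested, threshold 0.05. Zones of the same treatment were compared without a term for the animal, so the main p-values of those comparisons ignore the pairing of pieces. Effects were compared between zones with an interaction term and the animal as a block. SE is the size of the log2 fold change divided by the square root of F. CPM levels used TMM factors over all 54 libraries, with 0.1 added before logs. Alternatives were DESeq2 1.42.0, library size without TMM factors, other filters on low counts, all 9 groups in 1 fit, the replicate block and leaving out each animal. Leaving out sham replicate 5 and cell sheet replicate 1 together was chosen after seeing the data. The fits without 1 of these animals were also singled out after seeing the data, since both stood apart in some of the members themselves. Adjusted p-values of fits without them may therefore be too small. Between treatments the replicate numbers did not pair the libraries (correlations of deviations from -0.684 to 0.555). Within a treatment, pieces with the same number in their labels were taken as 1 heart. Infarct pieces correlated best with the remote piece of their own number in 4 of 6 sham, 3 of 6 untreated MI and 2 of 6 cell sheet hearts. For border pieces these counts were 5, 2 and 4 of 6. In untreated MI the pairing thus rests on the labels, and so do the fits with the animal as a block. The edgeR steps were tested on simulated data. Of changes of 1 on the log2 scale, 41 of 97 were recovered for untreated MI against sham infarct tissue. The counts were 53 of 93 for cell sheet against untreated MI border tissue and 34 of 99 for the interaction of border and remote zone. Of changes of 2 they were 85 of 103, 97 of 107 and 70 of 101. False calls were 6 of 132, 7 of 157 and 2 of 106. Many changes of 1 were thus missed.

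The 10 members are all named. From other lists the text gives counts and at most 4 genes per comparison, those past the threshold with the largest change (1 gene so chosen is not reported here), and by likeness the 3 genes with the highest Pearson r and a mean log2 CPM of at least 1. The members and lists were chosen with earlier results of these data known. Promoter sequences and gene order are from RefSeq (GRCr8), whose coordinates are not those of the counted annotation. Genome and protein sequences were not used here.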

Additional observations from a re-analysis of the deposited data

Results flagged for a closer look

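In 11 of 85 groups of 6 libraries, 1 library lay far from the other 5 by Dixon's test, where chance gives about 5% of groups, and 7 of the 11 were sham replicate 5. In that animal Timp1 was high in remote, border and infarct tissue at 125, 118 and 112 CPM, while the next sham libraries were at 13.7, 18.6 and 16.9 CPM. Its infarct piece was high in Mmp12 at 53.7 CPM (next 1.33) and in Mmp19 at 17.2 CPM (next 6.72). Timp4 was low in its remote piece at 3.82 CPM (next 21.7) and in its border piece at 4.72 CPM (next 20.4). Its summed macrophage markers were 6461 to 11370 CPM and its summed T cell markers 168.3 to 262.9 CPM. Its summed cardiomyocyte markers were 31290, 18360 and 19960 CPM in remote, border and infarct tissue, against group medians of 59530, 53040 and 54200. The part of these cell types in these levels was not tested.

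The remote piece of cell sheet replicate 1 was high in Mmp12 at 68.1 CPM (next 2.22) and in Timp1 at 97.7 CPM (next 24.1). Its summed fibroblast markers were 14690 CPM and its summed myofibroblast markers 3913 CPM, against group medians of 2528 and 390.9, and their part was not tested. Infarct piece 1 of untreated MI was low in Mmp12 at 3.82 CPM (next 115), with the highest summed cardiomyocyte markers of its group, 32460 CPM. Infarct piece 6 of the cell sheet group was low in Timp2 at 801 CPM (next 1090), with the highest summed cardiomyocyte markers of that group, 29480 CPM.

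For 3 genes the effect of untreated MI over sham differed between the infarct and the remote zone in edgeR's quasi-likelihood test of the interaction. The difference of log2 fold changes was 1.10 for Mmp14 (adjusted p = 0.00803), 1.07 for Mmp19 (adjusted p = 0.0289) and -1.46 for Timp4 (adjusted p = 0.0185). Of all genes 28.9% passed in this test. Mmp19 did not pass without sham replicate 5 (adjusted p = 0.0514), and none of the 3 passed without the animal term.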

How the results depend on the processing

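Of 2733 recomputed gene values none reversed a call, and 47 changed sign without being called in either fit. Counts of members in this section are given without the share over all genes of the same fit. DESeq2 called 1 member for cell sheet against untreated MI in the infarct zone and 1 in the remote zone, 6 for border against remote tissue of untreated MI hearts, 1 for each sham zone comparison, 7 for the cell sheet effect between infarct and remote zone, and 5 and 1 for the untreated MI effect (infarct and border against remote). All 9 groups in 1 fit gave 1 for cell sheet against untreated MI in the remote zone and 3 for infarct against remote tissue of untreated MI hearts, as did no filter on low counts (3). Library size without TMM factors gave 6 for the untreated MI effect between infarct and remote zone. The cause of these shifts was not tested. Within a treatment the replicate block pairs pieces with the same number. With it, 0 members passed for untreated MI border against remote tissue and 1 for sham infarct against remote tissue. No replicate block gave 0 for the untreated MI effect between infarct and remote zone. Between treatments same-numbered libraries share only a number, and at most 2 of 6 correlated best with their own. There the block changed 4 calls of untreated MI against sham, Mmp12 border 6.71 (adjusted p = 0.046), Mmp12 remote 3.68 (adjusted p = 0.0136), Timp1 remote 2.19 (adjusted p = 0.00921) and Timp4 border -1.95 (adjusted p = 0.0687), and 2 of cell sheet against sham, Mmp12 border 5.83 (adjusted p = 0.0317) and Timp3 border -0.29 (adjusted p = 0.108).

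Animals were left out 1 at a time, which removed 1 library in comparisons within a zone and both pieces of the heart in those between zones. This gave 7 to 9, 6 to 8 and 3 to 8 members for untreated MI against sham (infarct, border, remote), 0 to 0, 0 to 0 and 0 to 8 for cell sheet against untreated MI, and 9 to 9, 6 to 9 and 0 to 0 for cell sheet against sham. Infarct and border against remote tissue gave 0 to 7 and 0 to 5 in untreated MI, 8 to 9 and 0 to 9 in cell sheet and 0 to 0 in sham hearts. The untreated MI effect gave 2 to 5 (infarct) and 0 to 0 (border against remote), and the cell sheet effect 0 to 7 for infarct against remote and 0 to 0 for the others. Under library size alone the split of all calls (higher, lower) moved from 4492 and 4586 to 6238 and 3177 for cell sheet against sham infarct tissue, and from 3254 and 3701 to 5308 and 2150 for border tissue. Depth limits Mmp3 and also Mmp9, most of all in sham tissue, where at most 15 counts were found. Mmp9 fell to 11 counts in the untreated MI border zone.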
